A study of Homo sapiens with 4 samples.

Results

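LIM homeobox factors are transcription factors in which a pair of LIM domains is joined to a DNA-binding homeodomain. The rows of 10 of these genes were read from the deposited matrices by gene symbol, out of 36601 features in all: ISL1 and ISL2, LHX1 and LHX5, LHX2 and LHX9, LHX3 and LHX4, and LMX1A and LMX1B, each named beside its closest paralogue. All 10 were present in every matrix. Of these, LHX1, LHX5, LHX4, LHX9 and LMX1B were found mainly or partly in neurons, LMX1A was found almost entirely in a small class that the authors left without a name, and ISL1, ISL2, LHX2 and LHX3 were rare.

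LIM homeodomain proteins act in combinations. Their LIM domains bind the bridging cofactors LDB1 and LDB2, which hold them in complexes with one another, while LIM-only proteins (LMO1 to LMO4) compete for the same cofactors. In the developing nervous system the set of factors in a postmitotic neuron goes with its type: in the dorsal spinal cord LHX1 and LHX5 with PAX2 mark inhibitory interneurons, LMX1B with TLX3 marks excitatory ones, LMX1B is also needed for serotonin neurons of the hindbrain, and LMX1A acts in the roof plate and in midbrain dopamine neurons.

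The samples were enteric ganglioids, free-floating aggregates of neural crest derivatives grown as a model of the gut's nervous system, made from H9, a single established human embryonic stem cell line. There were 4 samples, 2 control and 2 given PP121, a multi-targeted kinase inhibitor, at 2 µM from day 15 to day 20, each a pool of ganglioids profiled by single-nucleus RNA-sequencing. Each group held differentiation replicates 1 and 2, and whether same-numbered samples of the groups came from 1 differentiation is not stated in the sources used here. In the nuclei's annotation the samples numbered 1 carry day 42 and those numbered 2 carry day 38, although the methods describe a single day, so day and differentiation cannot be told apart. A deposited column of sample names goes against the labels for both control samples, and the labels were followed. The replicate block used for PP121 below rests on the labels' numbers, and no fit with the contrary pairing was made. The day and the contrary column of sample names both stand in the nuclei's annotation. The day pairs the samples as the labels' numbers do, the column does not, and which is right was not tested.

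The annotation names 14812 nuclei of the 25306 deposited, from 2912 to 4587 per sample with 23348045 to 34123759 unique molecular identifiers (UMIs). Between 0 and 8 annotated barcodes were shared by any pair of samples. Values of the 4 samples are given in the order control 1, control 2, PP121 1, PP121 2. Enteric neurons numbered 2301, 1250, 2030 and 976, with median depths of 7210 to 8102 UMIs. The 8 neuron markers summed to 2945 to 3629 CPM (the gene's UMIs scaled to all UMIs of the class) in these nuclei, but the 8 enteric lineage markers summed to only 27.0 to 72.6 CPM, and HAND2 and TLX2, which define enteric neurons, gave 3 UMIs each over 6557 neurons. Mesenchymal nuclei numbered 40 and 33 in the day 42 samples against 408 and 422 in the day 38 samples.

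On GRCh38, the build named in the submitters' processing notes, the LHX1 gene spans chr17:36936785-36944612 on the plus strand and LHX5 chr12:113462034-113472280 on the minus strand. LHX9 lies at chr1:197911902-197935478 and LHX2 at chr9:124001670-124033301, both on the plus strand. LHX4 lies at chr1:180230286-180278982 (plus) and LHX3 at chr9:136196250-136205128 (minus). LMX1A spans chr1:165201867-165356715 (minus) and LMX1B chr9:126614443-126701032 (plus). ISL1 lies at chr5:51383391-51394738 and ISL2 at chr15:76336724-76342476, both on the plus strand. All are protein-coding. Neither the counting of introns nor the use of strand is stated for these counts, which leaves some reads uncertain: LHX5 overlaps its antisense gene LHX5-AS1, LHX1 overlaps AC243773.1, ISL2 overlaps AC027243.1, LHX4 overlaps ACBD6 and LMX1A overlaps AL390730.1 and AL390730.2 on the opposite strand, and LMX1B overlaps AL161908.2 and LHX2 overlaps AC006450.1 on the same strand. LHX2 also overlaps AC006450.2 and AC006450.3 on the opposite strand. LHX1-DT starts on the other strand just upstream of LHX1 without overlapping it.

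RefSeq promoter windows on GRCh38.p14 matched 8 of the 10 members, not LHX1 and LHX5. Those of LMX1A and LMX1B are shown because this paralogue pair was the one found in the unnamed class. The 250 bases before the RefSeq start of each gene lie at chr1:165356716-165356965 on the minus strand and at chr9:126613678-126613927 on the plus strand and read, 5′ to 3′, with each match to the E-box letters CANNTG in capitals:
LMX1A: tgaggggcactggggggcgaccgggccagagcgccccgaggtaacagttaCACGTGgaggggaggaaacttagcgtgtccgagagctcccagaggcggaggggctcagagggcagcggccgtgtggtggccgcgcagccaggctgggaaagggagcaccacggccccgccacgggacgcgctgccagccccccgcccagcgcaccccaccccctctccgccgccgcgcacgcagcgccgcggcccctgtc
LMX1B: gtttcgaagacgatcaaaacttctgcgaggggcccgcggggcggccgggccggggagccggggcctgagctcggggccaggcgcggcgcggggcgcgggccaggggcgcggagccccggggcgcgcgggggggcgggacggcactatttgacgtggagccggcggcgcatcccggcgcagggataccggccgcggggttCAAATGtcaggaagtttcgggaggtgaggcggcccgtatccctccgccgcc
For LMX1A 2 RefSeq windows were listed and 1 is shown, so its matches given here hold for that window alone. The RefSeq start of LMX1B lies upstream of the start given above for the gene. Both windows were rich in G and C, at 75.2% for LMX1A and 76.4% for LMX1B. Each held 1 CANNTG match, 200 bases before the start in LMX1A, where it was also CACGTG, and 51 bases before it in LMX1B. Neither held TAAT, the core letters of homeodomain sites, on either strand. Of 35116 windows of the same length, 61.8% held CANNTG, 6.34% CACGTG and 47.4% TAAT.

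Levels differed by class. The classes were made by the authors by clustering on expression, so the differences between them are described and not tested. LHX1 was at 70.1, 47.9, 61.6 and 41.1 CPM in neurons, a mean of 55.2 ± 13.1 CPM (SD, n = 4). In progenitor 1 it lay between 5.91 and 15.9 CPM and in progenitor 2 between 4.01 and 17.2 CPM, below the neurons of every sample. After each nucleus was thinned to 2000 UMIs, 10.3% of neurons had an LHX1 UMI (672 of 6536), against 1.11% of mesenchymal nuclei (10 of 898), whose median depths were 7227 to 8401 UMIs. Neurons held 85.7% of all 3800 LHX1 UMIs.

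LHX5, the paralogue of LHX1, followed the same order. Its neuron levels were 14.9, 13.1, 12.4 and 12.3 CPM, with little spread between samples (13.2 ± 1.18 CPM, SD, n = 4). Progenitor levels stayed between 0.927 and 3.54 CPM. Thinned shares were 2.59% of neurons (169 of 6536) and 0.111% of mesenchymal nuclei (1 of 898). A single exception to the order came from 21 epithelial nuclei of control 2, where 3 UMIs gave 15.2 CPM.

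LHX4 was not restricted to neurons. Its levels were 11.8, 14.1, 20.6 and 22.6 CPM in neurons, 13.0 to 21.5 CPM in progenitor 2, 15.2 to 33.6 CPM in mesenchymal and 12.6 to 22.7 CPM in unnamed nuclei. These classes overlapped, and only progenitor 1 lay lower throughout, at 4.93 to 9.10 CPM. The thinned share was 3.08% in neurons and 3.79% in mesenchymal nuclei. LHX3, which acts with LHX4 and ISL1 in motor neurons, gave 20 UMIs in all 14812 nuclei.

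LHX9 differed widely between samples. Its neuron levels were 3.69, 2.25, 7.49 and 21.5 CPM, while both progenitor classes lay at 4.60 CPM or less. Detection was rare and concentrated: 138 of 6557 neurons held 409 UMIs, up to 28 in a single nucleus. Its paralogue LHX2 gave 94 UMIs in 57 neurons, 12 of them in 1 nucleus.

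LMX1B was at 8.76, 31.4, 30.7 and 73.2 CPM in neurons, lowest in control 1 and highest in PP121 2. It was at 1.14 to 4.56 CPM in progenitors, far below the neurons of the same sample in each case. In the unnamed class it stood at 9.31, 25.2, 47.7 and 66.9 CPM, so neurons and unnamed nuclei did not differ beyond their spread (36.0 ± 26.9 and 37.3 ± 25.2 CPM, SD, n = 4).

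LMX1A was found mainly in a single class. The unnamed nuclei, 176, 60, 211 and 121 in number, held 95.7% of its 2363 UMIs, at 303, 310, 462 and 558 CPM. In no other class and sample did LMX1A pass 2.47 CPM. The thinned share was 39.8% of unnamed nuclei (225 of 565) and 0.138% of neurons (9 of 6536), with median depths of 7767 to 9911 and 7210 to 8102 UMIs.

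ISL1, a marker of motor and sensory neurons, gave 40 UMIs in 18 of 6557 neurons, up to 8 in a single nucleus. Of these, 24 were in control 2, where the neuron subtype EN 4 held 20 in 6 nuclei. The thinned shares, 0.138% of neurons (9 of 6536) and 0.111% of mesenchymal nuclei (1 of 898), rest on too few nuclei to show a difference. ISL2 gave 8 UMIs in all.

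**Figure D1:**
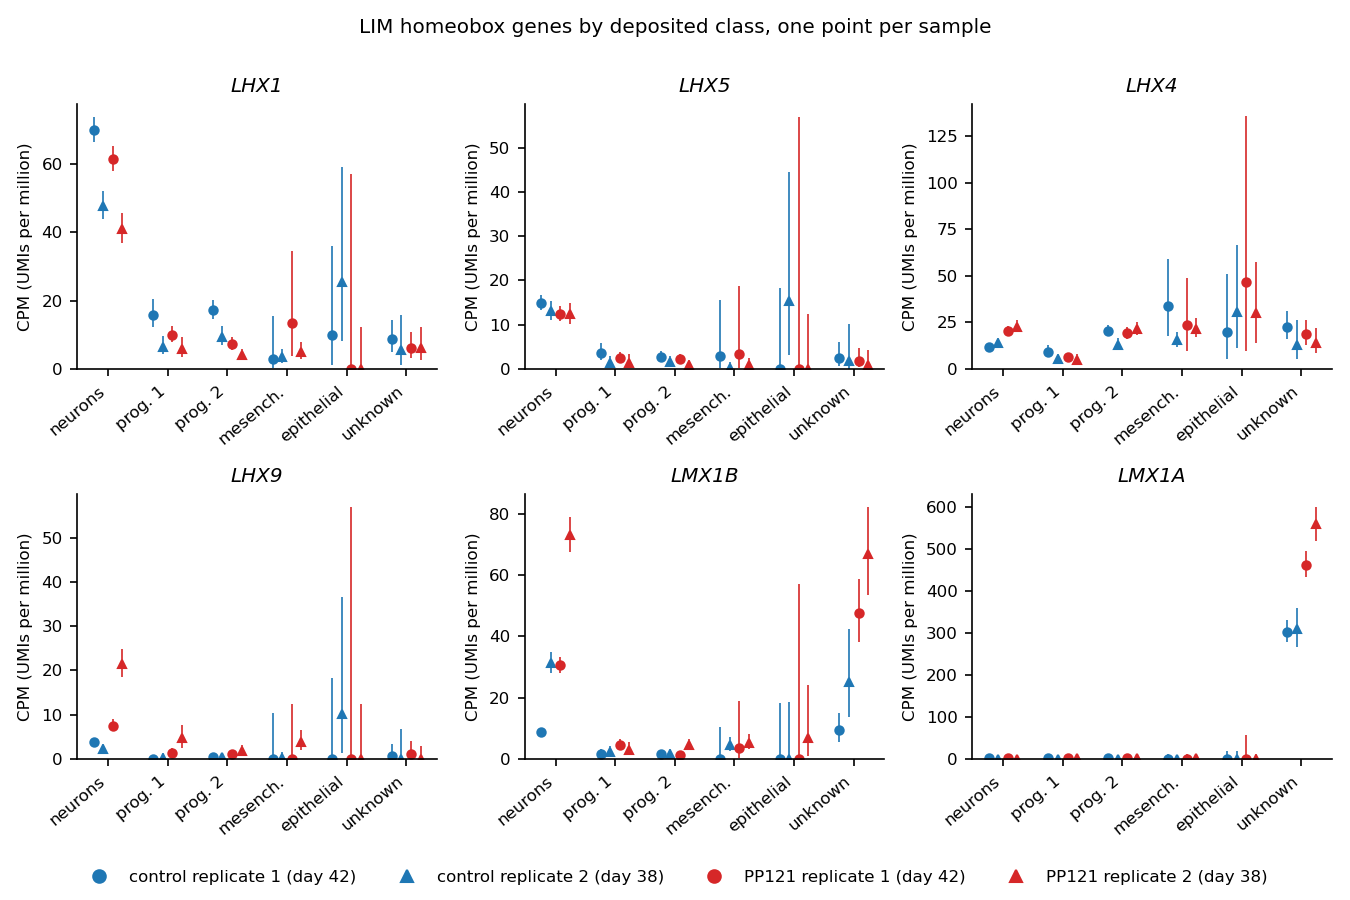
Level (CPM) of 6 LIM homeobox genes in each deposited class, 1 point per sample, with exact 95% Poisson intervals that cover counting error only; blue is control, red is PP121, circles are day 42 and triangles day 38. LHX1, LHX5, LHX9 and LMX1B stood above both progenitor classes in the neurons of all 4 samples, LHX4 did not, and LMX1A lay at 303 to 558 CPM in the unnamed class and at 2.47 CPM or less elsewhere.

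Within neurons the members peaked in different subtypes, with LHX1 beside LHX5. Control nuclei carry names from a clustering of controls alone (EN 1 to EN 8) and PP121 nuclei names from a clustering of both groups together (EN A to EN I), and the 2 sets of names were not matched here. Since the subtypes came from clustering they are described without a test, for those with at least 20 nuclei, and shares are over neurons with a subtype. LHX1 was highest in EN 2 of both controls, at 126 and 114 CPM, and in EN B of both PP121 samples, at 115 and 123 CPM. LHX5 peaked in the same subtypes, EN 2 at 35.5 and 33.9 CPM and EN B at 30.6 and 38.5 CPM, except that EN C of PP121 2, with 36 nuclei, reached 40.1 CPM. EN B, second to EN C there, was thus first or second for both genes in each PP121 sample.

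The subtypes richest in LMX1B were poor in LHX1. EN H, 302 and 233 nuclei, held 67.4% and 73.5% of the LMX1B UMIs of neurons with a subtype in PP121 1 and PP121 2, at 139 and 227 CPM, and had LHX1 at 9.16 and 8.30 CPM. In control, LMX1B was highest in EN 4 and EN 8, at 45.8 and 37.7 CPM in replicate 1 and at 66.8 and 109 CPM in replicate 2, and these were the subtypes with the least LHX1, at 6.22 to 23.6 CPM. EN 3, the lowest for LMX1B, was at 0.302 and 2.51 CPM.

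LHX9 was concentrated in fewer nuclei than LMX1B. EN I, 43 nuclei of PP121 1 and 77 of PP121 2, held 89.3% and 90.4% of the LHX9 UMIs of neurons with a subtype, at 318 and 240 CPM. In the controls EN 4 held 62.9% and 68.0%, at 30.1 and 9.31 CPM. EN I made up 2.28% of neurons in PP121 1 and 8.42% in PP121 2, and the LHX9 level over all neurons of these samples differed in the same direction. LHX2 peaked in the same subtypes on few UMIs, at 15.04 CPM in EN 4 of control 1 and at 37.9 and 17.0 CPM in EN I, though not in control 2, where EN 2 was highest at 2.46 CPM. LHX4 was spread more evenly, from 4.04 to 21.8 CPM across the subtypes of control 1, 5.605 to 24.005 in control 2, 15.5 to 29.2 in PP121 1 and 18.0 to 26.5 in PP121 2. EN 2 was highest for LHX4 in both controls, as for LHX1, with 30.0% and 25.5% of the UMIs in 16.5% and 13.9% of neurons.

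**Figure D2:**
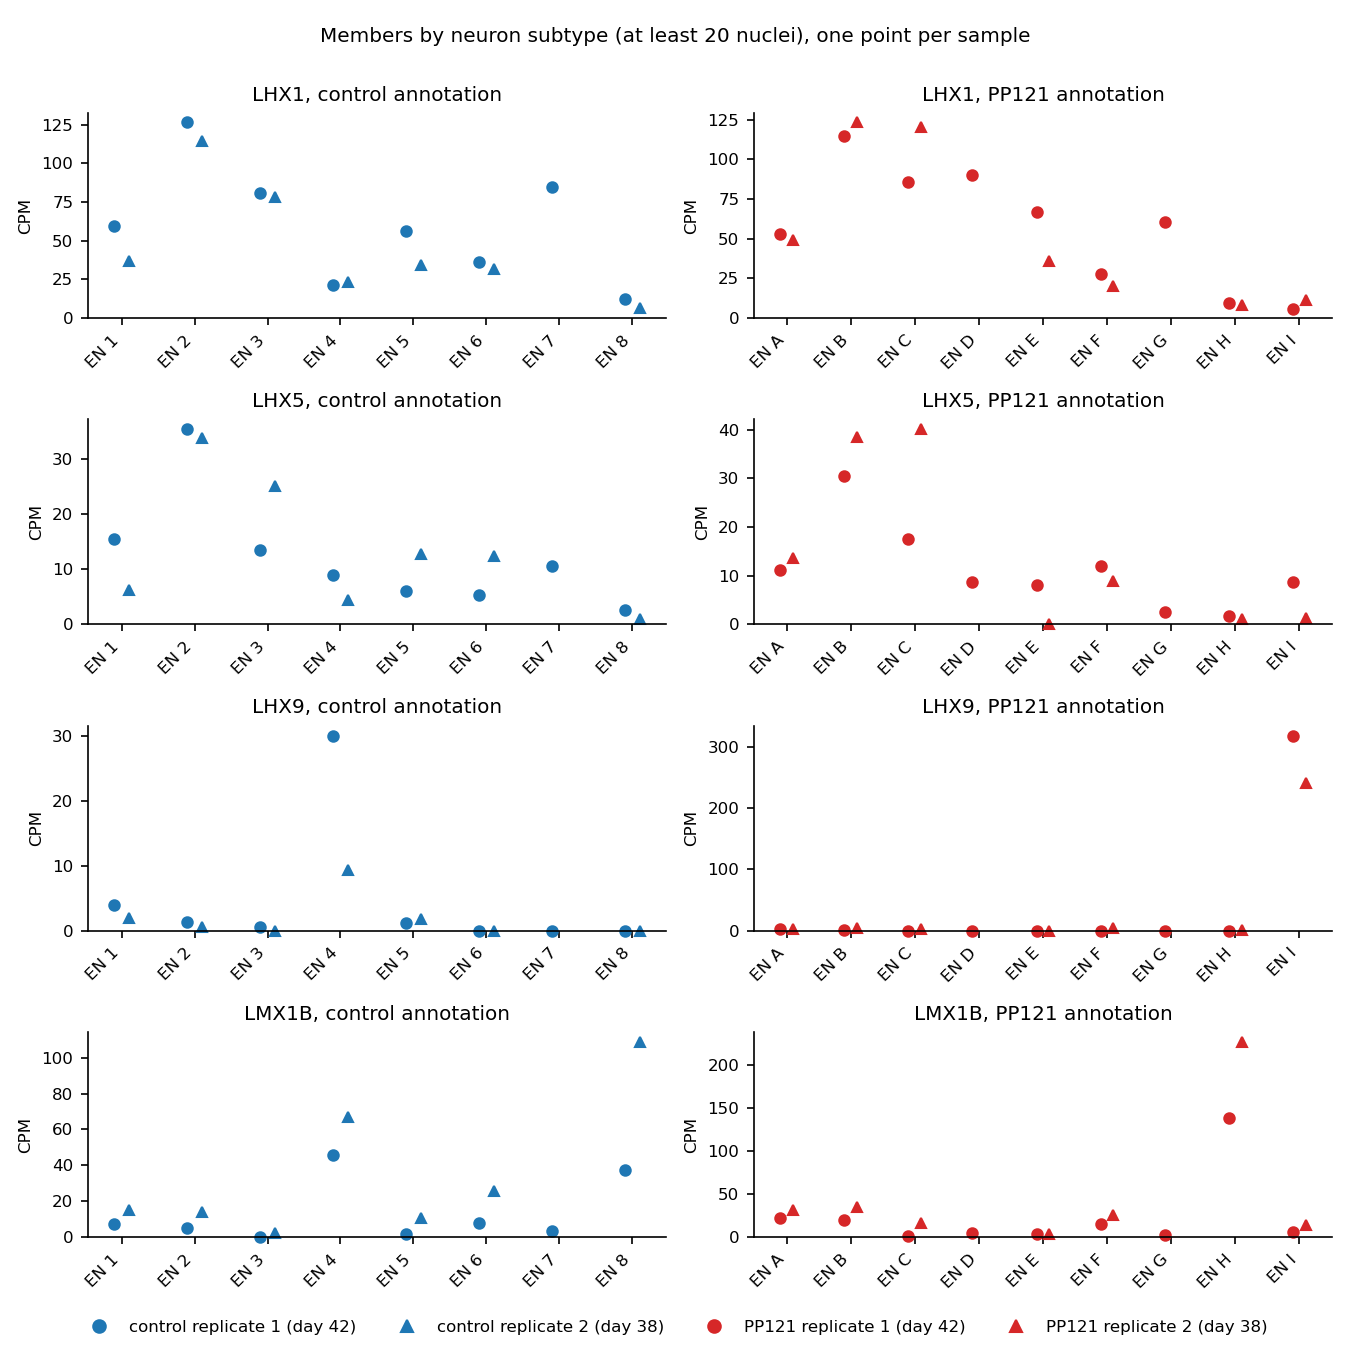
Level (CPM) of LHX1, LHX5, LHX9 and LMX1B in each neuron subtype with at least 20 nuclei, controls on the left and PP121 on the right, 1 point per sample; the 2 sets of subtype names were not matched. LHX1 and LHX5 peaked in EN 2 and EN B, LHX9 in EN 4 and EN I, and LMX1B in EN 4, EN 8 and EN H.

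Members were next counted in the same nucleus. Over the neurons of a sample, those with a UMI of both genes were divided by the number given by the product of the separate shares, so that 1 stands for unrelated detection, and deep nuclei alone push the ratio above 1. LHX1 and LHX5 were found together more often, with ratios of 1.60, 2.29, 1.65 and 2.76. Between 47.5% and 54.1% of LHX5 neurons held an LHX1 UMI, against 16.2% to 30.5% of the remaining neurons. After thinning, the ratio was 2.05, 3.06 and 1.55 in the 3 samples with enough nuclei.

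LHX1 and LMX1B, in contrast, were found together less often than their shares give. Ratios were 0.464, 0.313, 0.441 and 0.457, and 7.39% to 15.2% of LMX1B neurons held an LHX1 UMI against 22.9% to 33.5% of the rest. LHX5 and LMX1B gave 0.200 to 0.530 and LHX1 and LHX9 0.188 to 0.490. LHX1 and LHX4 gave 1.20 to 1.52, and 1.75, 1.70, 0.983 and 1.38 after thinning. Of unnamed nuclei with an LMX1B UMI, 81.0% to 100.0% also held LMX1A, against 46.3% to 61.5% of those without.

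**Figure D3:**
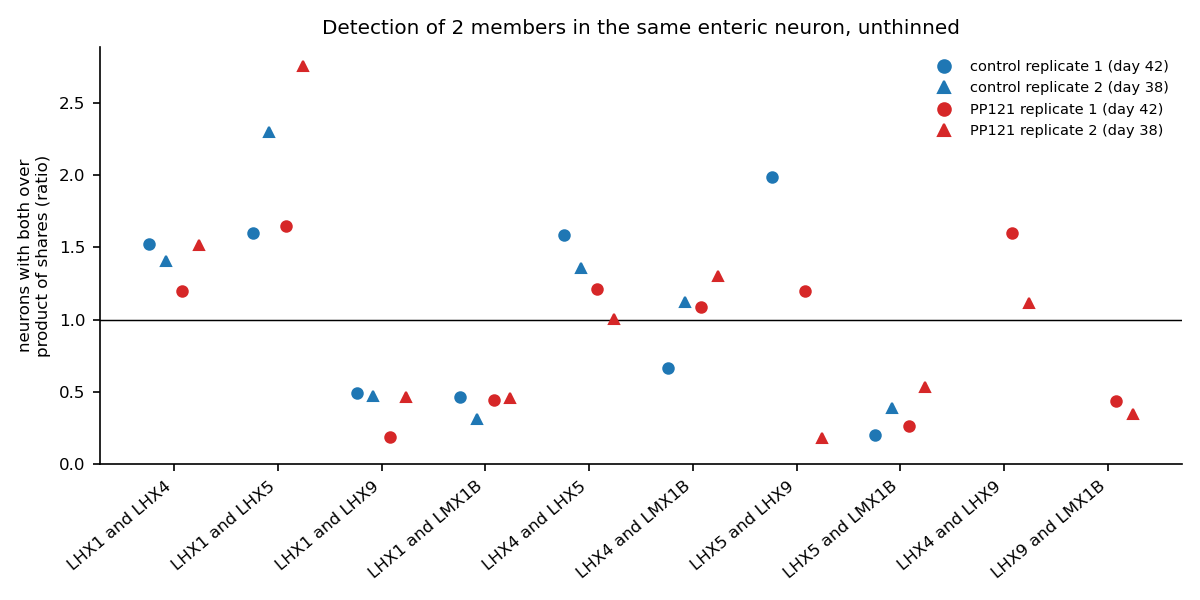
Neurons holding a UMI of both genes of a pair, divided by the number given by the product of the separate shares, for pairs of 5 members, 1 point per sample, unthinned; pairs with too few nuclei in a sample have no point. LHX1 with LHX5 lay at 1.60 to 2.76 and LHX1 with LMX1B at 0.313 to 0.464.

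The genes whose pattern across neurons was most like that of a member were ranked by the mean over 4 samples of Pearson's r between nuclei, among 17449 genes. These are sparse counts of shared libraries and depth, given as a description with no test. For LHX1 they were NRXN3 (r = 0.33), PAX2 (0.31), the neighbouring LHX1-DT (0.30), SLC6A5, the neuronal glycine transporter (0.29), and AC008056.1 (0.28). LHX5 shared NRXN3, PAX2 and AC008056.1 of these, at 0.19, 0.18 and 0.17, beside ROBO3 (0.19) and LHX1 itself (0.18). LHX1 stood at rank 17433 of the list of LMX1B, with r = -0.14. LMX1B was nearest to TMEM163 (0.34), KLHL29 (0.30), SLC17A6, a vesicular glutamate transporter (0.30), AC105389.3 (0.29) and CACNA2D1 (0.28). LHX9 was nearest to AL008633.1 (0.30), the kainate receptor gene GRIK1 (0.27), the LIM-only gene LMO3 (0.26), TMEM132D (0.26) and DENND1B (0.20). For LHX4 the nearest gene, NFE2L3, reached 0.16. LMX1A, compared across all annotated nuclei, a choice made after its values were seen, was nearest to CDH6 (0.54), the bone morphogenetic protein GDF7 (0.54), FYB2 (0.53), AL035425.3 (0.53) and RSPO3, a WNT agonist (0.50).

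The next comparisons asked whether the members went with transmitter identity. The authors gave neurons identities from imputed values and module scores of marker genes. Between 56.0% and 66.5% of neurons carried 2 or more. Imputation borrows across all genes of a library, so identity and members are not fully independent. Most of the defining genes were higher in the counts of neurons with the label: GAD1, an enzyme of GABA synthesis, was at 84.8 to 116 CPM in GABAergic and 6.56 to 10.3 CPM in other neurons, CHAT at 48.0 to 70.7 against 0.979 to 4.90 CPM in cholinergic neurons, and TH, the first enzyme of catecholamine synthesis, at 21.5 to 26.7 against 3.25 to 5.65 CPM. NOS1, the neuronal nitric oxide synthase, was at 17.8 to 82.4 against 0.141 to 0.995 CPM in nitrergic neurons, and TPH1, an enzyme of serotonin synthesis, at 8.75 to 12.2 against 0.679 to 1.60 CPM in serotonergic ones. The other serotonergic genes separated less. TPH2 was at 1.65 to 8.84 against 0.679 to 4.29 CPM, higher with the label in 3 of 4 samples. SLC6A4 was at 7.58 to 14.7 against 3.63 to 7.81 CPM, higher in all 4. SLC5A7, the choline transporter, was lower in cholinergic than in other neurons in 2 of 4 samples. The glutamate transporter gene SLC17A6 separated glutamatergic neurons less, at 27.1 to 63.4 against 15.05 to 53.6 CPM, and DBH, which completes noradrenaline synthesis, was near 0 in catecholaminergic neurons (0.249 to 0.760 CPM). In each sample, neurons with an identity were summed and compared with the rest by edgeR with the sample as a block, over all genes. Median depths ran from 5948 to 9163 UMIs over these groups of neurons, and the widest gap was 8633 against 5948 UMIs for glutamatergic and other neurons of PP121 2; the part of depth was not tested. Of 32 such tests of members, 17 passed an adjusted p of 0.05 over the 6 identities. ISL1, ISL2, LHX3 and LMX1A were too low to be tested in any of them, and LHX2 was tested in 2.

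In GABAergic neurons 4 of 6 members tested differed from other neurons, where 8.11% of all genes did. LHX1 was at 77.9, 80.1, 90.4 and 104 CPM in GABAergic neurons and at 63.4, 33.9, 40.04 and 28.5 CPM in the other neurons. GABAergic neurons were higher in all 4 samples, with no overlap (log2 difference 1.16 ± 0.19 SE, edgeR adjusted p = 0.00402). LMX1B stood at 1.85, 4.81, 5.62 and 6.44 CPM with the identity and at 15.4, 42.6, 55.2 and 89.6 CPM without it. It was lower in all 4 samples, by 3.21 ± 0.13 on the log2 scale (edgeR adjusted p = 9.59e-07). LHX9 was at 1.30, 0.641, 0.144 and 2.15 CPM against 6.04, 2.96, 15.4 and 28.2 CPM, and it too was lower in all 4 samples (log2 difference -3.39 ± 0.46, edgeR adjusted p = 0.00118). The GABAergic levels of LHX9 rest on 18 UMIs. LHX2 was lower on 9 UMIs (-2.49 ± 0.52, edgeR adjusted p = 0.0146) and lost the threshold without control 1 (0.148), control 2 (0.0546) or PP121 1 (0.0974). LHX5 was at 13.5, 20.2, 18.3 and 30.0 CPM against 16.3, 9.91, 8.52 and 8.70 CPM, higher in all but control 1, and did not pass (0.86 ± 0.27, edgeR adjusted p = 0.087; without control 1 the log2 difference was 1.34, adjusted p = 0.00039).

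Cholinergic neurons differed in 4 of 6 members, against 12.1% of all genes. The cholinergic and GABAergic groups share many neurons: 71.0% to 92.3% of cholinergic neurons were GABAergic too, against 11.2% to 31.9% of the rest. Of GABAergic neurons, 53.1%, 61.1%, 67.5% and 41.8% were cholinergic too, so the 2 comparisons are not independent. LHX1 was at 85.4, 87.1, 88.9 and 108 CPM in cholinergic and at 62.9, 36.3, 50.5 and 34.5 CPM in other neurons, without overlap (1.03 ± 0.15, edgeR adjusted p = 0.000516). LHX5 was likewise higher in all 4 samples, at 18.9, 20.3, 19.0 and 23.9 CPM against 12.8, 10.9, 10.0 and 11.2 CPM (0.89 ± 0.14, edgeR adjusted p = 0.00127). LMX1B was lower in all 4, at 0.947, 13.8, 5.14 and 8.80 CPM against 12.8, 36.6, 45.8 and 82.3 CPM (-2.59 ± 0.26, edgeR adjusted p = 3.39e-05). LHX2 was lower on 9 UMIs (-1.71 ± 0.50, edgeR adjusted p = 0.0433) and lost the threshold without control 1 (0.303), control 2 (0.0921) or PP121 1 (0.216). LHX9 did not pass (-1.13 ± 0.50, edgeR adjusted p = 0.171). It was lower in 3 samples and at 37.7 against 22.1 CPM in PP121 2, without which the log2 difference was -2.59 (adjusted p = 0.00044).

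Catecholaminergic neurons differed in 1 of 5 members tested, LMX1B, against 4.99% of all genes. LMX1B was at 30.0, 55.5, 71.4 and 136 CPM in catecholaminergic neurons and at 4.09, 17.9, 10.2 and 27.3 CPM in the others. The lowest catecholaminergic value lay above the highest of the other neurons, and the difference was 5.15-fold (log2 2.36 ± 0.17, edgeR adjusted p = 2e-05). Among neurons without a GABAergic identity, catecholaminergic ones stood at 42.2, 68.6, 105 and 158 CPM and the rest at 6.76, 24.2, 17.5 and 33.2 CPM. GABAergic neurons that were also catecholaminergic were low, at 2.52 to 11.4 CPM. The highest LMX1B was thus in catecholaminergic neurons outside the GABAergic group. Without control 1, LHX1 and LHX5 also passed, as lower genes (log2 -0.52 and -0.65, edgeR adjusted p = 0.00729 and 0.0407).

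Glutamatergic neurons differed in 2 of 5 members, against 15.7% of all genes. LHX9 was at 7.24, 2.55, 18.0 and 29.6 CPM in glutamatergic and at 2.46, 2.04, 1.79 and 8.78 CPM in other neurons, higher in all 4 samples (1.96 ± 0.32, edgeR adjusted p = 0.00135). Its glutamatergic values rest on 36, 14, 106 and 168 UMIs, and control 2 differed least. Fewer glutamatergic neurons were also GABAergic, the identity in which LHX9 was lower. The shares were 23.3%, 13.9%, 29.6% and 13.2%, against 52.5%, 36.8%, 54.5% and 25.2% of the rest. The part of this overlap was not tested. LHX5 was at 19.3, 15.8, 16.8 and 14.1 CPM against 13.3, 9.83, 10.7 and 8.34 CPM, also higher in all 4 (0.61 ± 0.13, edgeR adjusted p = 0.00724; DESeq2 0.058). In glutamatergic neurons LHX2 gave 78 UMIs against 16 but was too low to be tested. LMX1B was higher in 3 samples and did not pass (0.51 ± 0.19, edgeR adjusted p = 0.0957). The exception was PP121 2, at 71.4 against 83.9 CPM, without which the log2 difference was 0.84 (adjusted p = 0.00866).

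Nitrergic neurons, which make the relaxing transmitter nitric oxide, differed in 3 of 5 members, against 12.3% of all genes. Both LHX1 and LHX5 were lower in them. Fewer of them were also cholinergic, the identity in which both genes were higher. The shares were 12.9%, 7.83%, 14.2% and 7.69%, against 38.7%, 23.3%, 37.7% and 10.4% of the rest. The part of this overlap in the 2 differences was not tested. LHX1 was at 47.6, 28.9, 51.1 and 23.2 CPM against 76.1, 51.1, 67.0 and 44.2 CPM in other neurons (-0.59 ± 0.12, edgeR adjusted p = 0.00536). LHX5 was at 7.80, 8.63, 5.18 and 3.48 CPM against 16.6, 13.8, 15.2 and 13.5 CPM, without overlap (-1.14 ± 0.21, edgeR adjusted p = 0.00294). LHX9 was higher in all 4 samples, at 5.11, 5.08, 14.2 and 30.2 CPM against 3.38, 1.68, 6.65 and 22.9 CPM (0.90 ± 0.23, edgeR adjusted p = 0.0215). This last difference rests on 19, 10, 44 and 26 UMIs in nitrergic neurons, and up to 28 LHX9 UMIs lay in a single neuron of the series. It lost the threshold without control 2 (0.0585) or PP121 1 (0.182).

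Serotonergic neurons differed in 3 of 5 members, against 11.4% of all genes. This was the only identity in which LHX4 passed: 18.3, 27.8, 28.7 and 26.7 CPM against 9.51, 10.2, 13.5 and 20.4 CPM, higher in all 4 samples (0.97 ± 0.17, edgeR adjusted p = 0.00876; 0.057 without control 1). LMX1B was lower by this test, at 7.16, 33.7, 17.6 and 35.4 CPM against 9.37, 31.3, 41.9 and 88.8 CPM (-0.77 ± 0.21, edgeR adjusted p = 0.0406), but control 2 went the other way. LHX9 was at 1.79, 2.95, 2.64 and 17.5 CPM against 4.43, 2.12, 12.1 and 25.8 CPM, lower in all but control 2 (-1.08 ± 0.32, edgeR adjusted p = 0.0488; DESeq2 0.085). Neither held without control 1 (LMX1B 0.105, LHX9 0.177) or PP121 1 (0.178 and 0.249), nor did LMX1B without PP121 2 (0.113). More of the serotonergic neurons were also GABAergic, the identity in which LMX1B and LHX9 were lower. The shares were 56.5%, 35.0%, 66.4% and 27.9%, against 41.5%, 24.7%, 32.0% and 14.3% of the rest. The part of this overlap in the 2 differences was not tested. FEV, the factor that acts with LMX1B in hindbrain serotonin neurons, gave 1 UMI in all neurons.

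**Figure D4:**
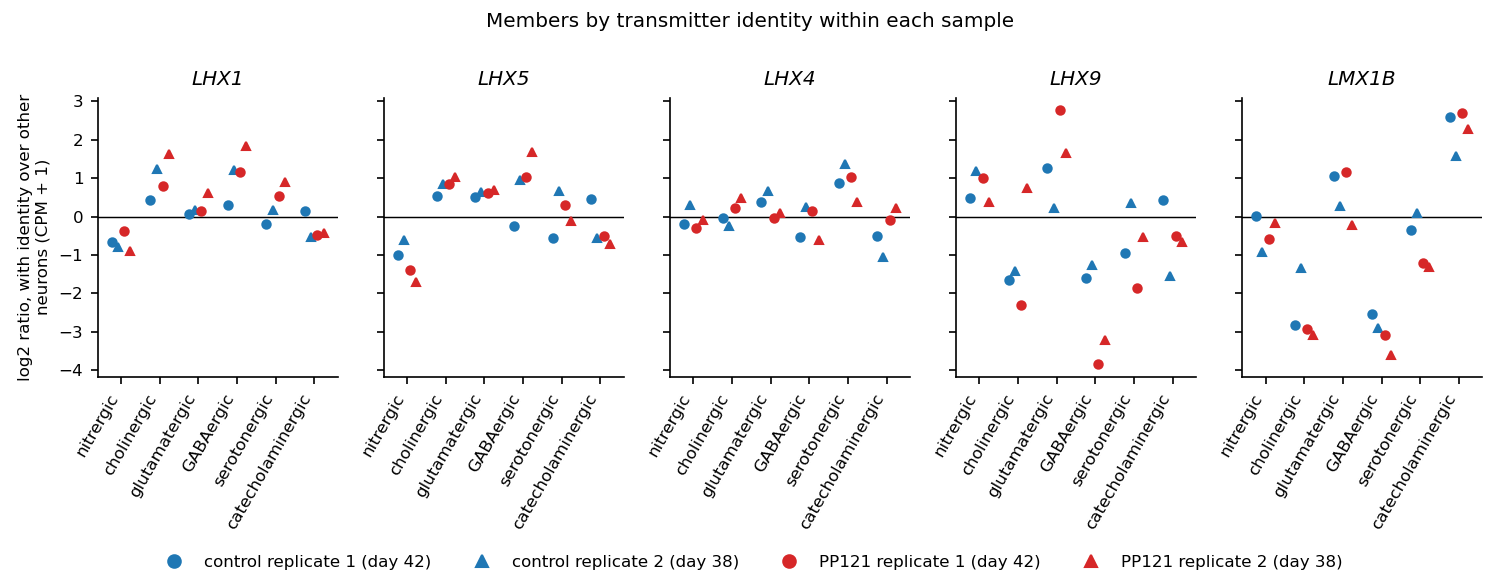
Log2 ratio of the level in neurons with a transmitter identity to that in the other neurons of the same sample (CPM with 1 added), for 5 LIM homeobox genes and 6 identities, 1 point per sample; values above the line are higher with the identity. LMX1B lay below the line for GABAergic and above it for catecholaminergic neurons in all 4 samples, and LHX1 lay above it for GABAergic neurons.

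The genes next to the members followed them in part. LHX1-DT was higher in GABAergic (log2 1.08 ± 0.16, edgeR adjusted p = 0.00188) and cholinergic neurons (0.93 ± 0.08, adjusted p = 1.35e-05) and lower in nitrergic ones (-0.50 ± 0.09, adjusted p = 0.00371), as LHX1 was. It also passed in serotonergic and catecholaminergic neurons (0.32 and -0.66, edgeR adjusted p = 0.0475 and 0.0103), where LHX1 did not. LHX5-AS1 was higher in cholinergic (1.05 ± 0.11, edgeR adjusted p = 4.66e-05) and lower in nitrergic neurons (-0.59 ± 0.13, adjusted p = 0.0116), as LHX5 was. It was also higher in GABAergic neurons (1.21 ± 0.22, edgeR adjusted p = 0.00682), where LHX5 did not pass, and the overlap of the pair leaves it uncertain which gene the reads came from.

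Among 25 partner and neural tube identity factors, 8 to 10 were high enough to be tested in each identity. Of these, 3 were higher and 3 lower in GABAergic neurons, 3 and 3 in cholinergic and 4 and 3 in glutamatergic neurons. In serotonergic neurons 2 were higher and 2 lower, in catecholaminergic 2 and 2 and in nitrergic 0 and 3. Of all genes tested, 8.11% passed in GABAergic, 12.1% in cholinergic and 15.7% in glutamatergic neurons. The shares were 11.4%, 4.99% and 12.3% in serotonergic, catecholaminergic and nitrergic neurons. The paired box genes PAX2 and PAX8 were higher in cholinergic, GABAergic and serotonergic neurons and lower in nitrergic, glutamatergic and catecholaminergic ones. In GABAergic neurons PAX2 averaged 804 CPM against 185 CPM (log2 2.49 ± 0.38, edgeR adjusted p = 0.00244), the same direction as LHX1.

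TLX3, a selector of excitatory neurons, was higher in catecholaminergic neurons and lower in GABAergic ones, as LMX1B was. In catecholaminergic neurons TLX3 averaged 12.9 against 1.90 CPM (2.78 ± 0.24, edgeR adjusted p = 8.19e-05). In GABAergic neurons it was lower by 2.63 on the log2 scale (edgeR adjusted p = 0.000301). PHOX2A and TLX3 were likewise lower in cholinergic and higher in glutamatergic neurons.

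All 10 cofactors were tested in each identity, except that 9 were in serotonergic and in catecholaminergic neurons. In cholinergic neurons 1 was higher and 4 lower, in nitrergic 1 and 3 and in glutamatergic 2 and 1. In serotonergic neurons 1 was higher and 1 lower, in GABAergic 0 and 2 and in catecholaminergic 0 and 2. The shares of all genes that passed are those given with the partners above. LMO3 was lower in cholinergic, GABAergic, serotonergic and catecholaminergic neurons and higher in glutamatergic ones, where LHX9 was also higher (LMO3 log2 1.19 ± 0.19, edgeR adjusted p = 0.0012). LDB2 was higher in nitrergic neurons, at 97.1 against 29.5 CPM (1.84 ± 0.20, edgeR adjusted p = 7.84e-05). LDB1, the bridging cofactor, passed in no identity.

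The treatment comparison asked whether PP121 changed the members. Summed over the neurons of each sample, 0 of 7 members tested passed edgeR without a block, as did 0 of all 21243 genes (0.0%). In that fit 2 members had an unadjusted p under 0.05, and DESeq2 passed 1, LHX9 (adjusted p = 0.00415). Since replicate numbers mark the deposited day, the fit with the replicate as a block is given beside it. It leaves 1 residual degree of freedom and passed 14.8% of all genes, and in it LHX4, LHX9 and LMX1B were higher with PP121. In a sum over a class, more nuclei of a kind and more RNA per nucleus cannot be told apart.

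LMX1B was higher with PP121 on both days, 30.7 against 8.76 CPM on day 42 and 73.2 against 31.4 CPM on day 38. The groups overlapped across days and separated within them. Paired by the contrary column of sample names instead, the values would stand at 30.7 against 31.4 CPM and 73.2 against 8.76 CPM. Within days the difference was 2.89-fold (log2 1.53 ± 0.14, edgeR adjusted p = 1.08e-08 with the block and 0.427 without). LHX9 was at 7.49 against 3.69 CPM and at 21.5 against 2.25 CPM, without overlap (log2 2.03 ± 0.30, 4.10-fold, edgeR adjusted p = 2.61e-05 with the block and 0.377 without). Its log2 difference was 0.85 on day 42 and 2.79 on day 38, and most LHX9 UMIs of these PP121 samples came from the 43 and 77 nuclei of EN I. LHX4 was at 20.6 against 11.8 CPM and 22.6 against 14.1 CPM, also without overlap (log2 0.79 ± 0.15, 1.73-fold, edgeR adjusted p = 0.000676 with the block and 0.377 without). With only the neurons whose neuron markers outnumbered progenitor markers, the same count of 3 members passed with the block.

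LHX1 was lower with PP121 on both days and did not pass (log2 -0.16 ± 0.11, edgeR adjusted p = 0.359 with the block), at 61.6 against 70.1 and 41.1 against 47.9 CPM. LHX5 differed by -0.14 ± 0.17 (edgeR adjusted p = 0.632 with the block). It averaged 12.4 against 14.0 CPM, lower with PP121 and also without overlap. Over all genes the share without overlap was not counted. ISL1 and LHX2 were tested on 40 and 94 UMIs and did not pass, and ISL2, LHX3 and LMX1A were too low. Leaving out 1 library from the fit without a block gave 3 members without PP121 1 (LHX4, LHX9 and LMX1B, adjusted p = 0.0228, 4.92e-07 and 0.000286) and 1 without PP121 2 (LHX9, 0.0487), where the lone PP121 sample is assumed to vary like the controls.

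**Figure D5:**
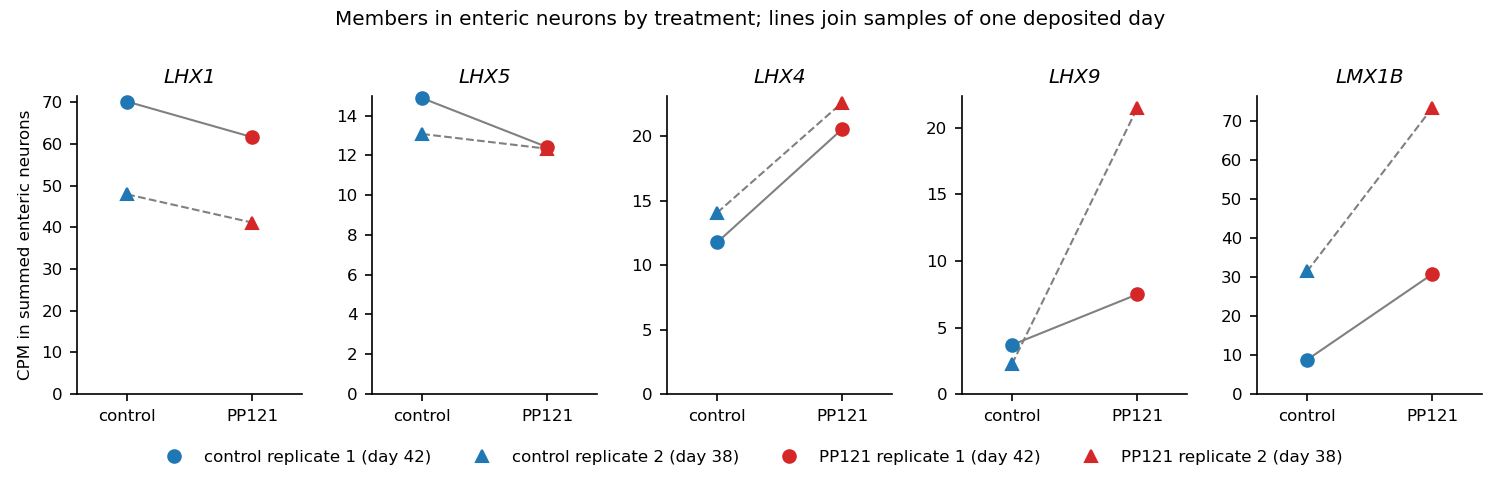
Level (CPM in summed enteric neurons) of 5 LIM homeobox genes in control and PP121 samples, with a line joining the samples of the same deposited day (solid day 42, dashed day 38). LHX4, LHX9 and LMX1B were higher with PP121 along both lines, past edgeR's threshold with the replicate as a block and not without it, while LHX1 and LHX5 were lower with PP121 along both without passing the test.

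Some partners moved beside the members. With the block, TLX3 was higher with PP121 (mean 7.33 against 4.08 CPM, log2 1.06 ± 0.27, edgeR adjusted p = 0.00808), as were POU4F1 and FOXP2. PAX8 was lower (135 against 218 CPM, log2 -0.89 ± 0.14, edgeR adjusted p = 4.6e-05), as were PAX2 and MNX1. Of the 10 cofactors SSBP3, LMO2 and LMO3 were higher and LMO4 and RLIM lower, by 0.32 to 1.66 on the log2 scale. This fit passed 14.8% of all genes. Without the block none of either list passed edgeR, with 3 cofactors and 1 partner at an unadjusted p under 0.05.

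By deposited day, 0 of 7 members passed edgeR in neurons without a block (0.0% of all genes), 3 at an unadjusted p under 0.05 and 0 by DESeq2. With treatment as a block, which passed 9.49% of all genes, LHX1 was higher on day 42 than on day 38 in both groups (log2 0.51 ± 0.11, edgeR adjusted p = 0.00259). LMX1B was lower on day 42 in both groups, averaging 19.7 against 52.3 CPM (-1.57 ± 0.14, edgeR adjusted p = 4.6e-09). ISL1 was lower too, on 6 UMIs against 34 (-3.34 ± 0.59, edgeR adjusted p = 0.000269), and those few UMIs sat in 18 neurons. The day 38 samples also held more mesenchymal nuclei, in which LMX1B was at 5.18 CPM or less; mesenchymal markers summed to 10.6 to 51.6 CPM in neurons against 2611 to 2912 CPM in mesenchymal nuclei, and their part in the day differences was not tested. Of 13 partners tested 2 were higher and 4 lower on day 42, and of 10 cofactors 3 were lower (SSBP2, SSBP3 and LMO3). PAX2 and PAX8 were higher as LHX1 was (log2 0.90 ± 0.10 and 1.81 ± 0.14, edgeR adjusted p = 1.93e-07 and 9.08e-10), and FOXP2 was lower as LMX1B was (-0.93 ± 0.13, adjusted p = 2.01e-05). Without a block, leaving out control 2 passed LHX9 (adjusted p = 0.0275) and leaving out PP121 1 passed LMX1B (0.0361).

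In progenitors, with both classes summed, 6 members were high enough to be tested. None passed edgeR for PP121 without a block (0.0% of all genes), 3 had an unadjusted p under 0.05 and 0 passed DESeq2. With the replicate as a block, 1.72% of all genes passed and so did LHX9, on 42 UMIs with PP121 against 6 in control (log2 2.63 ± 0.68, edgeR adjusted p = 0.0297). This level is low: LHX9 was at 2.63 CPM in the progenitors of PP121 2 and at 3.74 CPM in its mesenchymal nuclei, so the progenitors of that sample did not stand above its mesenchymal nuclei. LHX1 was lower on both days and came near the threshold (-0.93 ± 0.26, edgeR adjusted p = 0.0513). Of 9 partners tested 2 were lower, PAX2 and PAX8 (log2 -0.96 ± 0.23 and -1.97 ± 0.25, edgeR adjusted p = 0.0185 and 1.54e-06). By day, 0 members passed edgeR with or without treatment as a block (2.99% and 0.0% of all genes), 2 and 1 had an unadjusted p under 0.05, and DESeq2 passed 0. Without PP121 1 and without a block, LHX1 was higher on day 42 (log2 1.27, adjusted p = 0.0295).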

How the data were processed

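Single-nucleus RNA-sequencing of 4 samples was analysed from the deposited matrices. The deposited counts are UMIs per gene and nucleus, which the authors made with kallisto and bustools and demultiplexed with Seurat per their methods; the submitters' processing notes name Cell Ranger, GRCh38 and Seurat 4.0.4. The authors' annotation gave class, subtype, day and transmitter identity, and the deposited percent values per nucleus were not used. Nuclei marked as filtered were dropped. The methods remove low-quality nuclei by fixed limits; no doublet step is stated in the sources used here and none was added. Groups came from the labels.

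Counts were summed per sample and class and compared, two-sided, with edgeR 4.0.16 (quasi-likelihood, TMM, its filter on low counts, Benjamini-Hochberg over all genes, 0.05) in R 4.3.3; DESeq2 1.42.0, other filters, blocks, marker-checked neurons and leaving out each sample were alternatives. Scripts were tested on simulated data. Same-numbered samples deviated together (r = 0.513 over 18724 genes in neurons, 0.344 over 18206 in progenitors). Shares used nuclei thinned to 2000 UMIs, leaving out 2 to 10 neurons per sample; binomial and Poisson intervals (95%, exact) cover counting error only. Neurons lacking an identity annotation (16 to 143 per sample) stayed out of identity comparisons. Gene positions came from GENCODE 29.

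All 10 members, the cofactors and the partners were named by rule, the last 2 lists only where a test passed or a result turned on them, and nearest genes were the 5 with the highest mean r. Members and lists were chosen with earlier results of these data known; the defining genes of identities and FEV were named after values were seen. P-values of the fits without a block measure the spread between these 4 pools. With the replicate or treatment as a block, 1 residual degree of freedom is left, so edgeR's estimate of spread leans on all genes. For identities, p-values measure how far the difference within a sample varied between the 4 pools. Some results of the gene lists are not reported here.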

Additional observations from a re-analysis of the deposited data

Results flagged for a closer look

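With 49 groups of 4 samples tested, where chance gives about 1 in 20, a single sample stood far from the other 3 in 3 of them. LMX1B in progenitor 2 was at 4.48 CPM in PP121 replicate 2 and at 1.68, 1.67 and 1.14 CPM in the others. The log2 ratio of LMX1B in cholinergic against other neurons was -1.35 in control replicate 2 and between -2.82 and -3.09 in the others. The log2 ratio of LHX1 in catecholaminergic neurons was 0.15 in control replicate 1, against -0.53, -0.49 and -0.44.

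The log2 ratio of LHX4 in cholinergic against other neurons lay on opposite sides of 0 in the 2 treatments. It was -0.03 and -0.25 in the controls (mean -0.14) and 0.21 and 0.49 with PP121 (mean 0.35). The control ratios are small and rest on 74 and 28 UMIs in cholinergic neurons. Over all 4 samples LHX4 did not pass (0.17 ± 0.15, edgeR adjusted p = 0.502). The difference between treatments was not tested.

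In the nuclei that the authors marked as filtered, which entered no comparison, LHX4, LMX1A and LMX1B were higher in both PP121 samples than in both controls. The other members were not, and the share of all genes that were was not counted. LHX4 was at 15.9 and 17.3 CPM against 12.5 and 10.3 CPM. LMX1A was at 15.7 and 8.22 CPM against 7.45 and 7.89 CPM, and LMX1B at 17.6 and 30.9 CPM against 5.29 and 13.5 CPM. The nearest LMX1A values, 8.22 CPM in PP121 replicate 2 and 7.89 CPM in control replicate 2, rest on 49 and 72 UMIs and barely differ.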

How the results depend on the processing

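Alternatives were compared on the number of members passing and on each value. Of the main results, 87 alternative values stayed close, 37 moved and 1 changed direction; of the values of single genes, 399 kept their direction and side of the threshold, 27 lost it, 32 gained it and 31 changed direction. The cause was not tested, beyond fewer genes or samples entering a fit.

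With the replicate block, the pairing by deposited day, 3 members passed in neurons for PP121 (also 3 with marker-checked neurons) and 1 in progenitors; treatment as a block gave 3 for day in neurons. Over all genes, where the fits without a block passed 0, these blocks passed 3152 and 2015 genes in neurons and 349 and 606 in progenitors. DESeq2 gave 1 for PP121 in neurons and 1 for glutamatergic neurons. With no filter, 1 passed for PP121 in neurons, 1 for day in neurons, 1 for PP121 in progenitors, 4 for glutamatergic and 2 for catecholaminergic neurons. At least 10 counts in every sum left 2 for cholinergic and 1 for GABAergic neurons. With no sample block 1 nitrergic, 2 cholinergic, 0 glutamatergic, 0 serotonergic and 0 catecholaminergic calls were left. Leaving out each sample gave 0 to 3 for PP121 and 0 to 1 for day in neurons, 0 to 1 for day in progenitors, 0 to 3 serotonergic and 1 to 3 catecholaminergic.

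Shares of nuclei with a UMI rose with depth. From thinned to 2000 UMIs to unthinned they went from 9.62 to 26.1% (LHX1; 16.7% at 4000 UMIs), 2.43 to 9.03% (LHX5; 4.96%), 3.0998 to 11.5% (LHX4; 6.25%), 1.27 to 2.62% (LHX9) and 6.05 to 14.1% (LMX1B) in neurons, and 39.0 to 60.9% (LMX1A; 49.4%) in the unnamed class. Leaving out each sample, the log2 ratio of the neuron mean to the next class was 2.35 to 2.97 for LHX9 and -0.22 to 0.16 for LMX1B.

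The directions that changed were of values that passed no threshold with all samples; at 1 end of its range, LHX9 by day in neurons did pass (-2.03 without control replicate 2, adjusted p = 0.0275). Leaving out each sample, PP121 in neurons ranged from -4.04 to 0.98 (ISL1), -0.45 to 0.11 (LHX1) and -0.74 to 0.90 (LHX2; -0.040 under the stricter filter, -0.075 with the replicate block and -0.070 with marker-checked neurons too), and in progenitors from -0.16 to 0.54 (LHX4) and -0.9997 to 0.23 (LHX5). Day in neurons ranged from -0.76 to 0.87 (LHX2), -0.71 to 0.16 (LHX4), -0.073 to 0.15 (LHX5) and -2.03 to 1.26 (LHX9), and in progenitors from -0.21 to 0.50 (LHX4), -2.72 to 0.99 (LHX9), -0.86 to 1.72 (LMX1A; 0.036 with treatment as a block) and -0.97 to 0.071 (LMX1B). Identity differences ranged from -0.16 to 0.032 (LHX4, nitrergic), -0.24 to 0.093 (LHX4, GABAergic) and -0.13 to 0.33 (LHX5, serotonergic).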
